A study of Mus musculus with 24 samples.

Results

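Chromatin accessibility was examined at the genes of 10 ligands of the TNF (tumour necrosis factor) superfamily, Tnf, Lta, Ltb, Tnfsf9, Tnfsf14, Tnfsf15, Tnfsf10, Tnfsf13b, Tnfsf4 and Tnfsf8, in mouse bone marrow-derived macrophages (BMDMs). All consensus peaks that touched the body of such a gene or the 20 kb on either side of it were taken, and a peak within reach of several members went to the nearest. This gave 98 of the 184158 consensus peaks, with 17 at Tnfsf15, 15 at Tnfsf8, 13 at Tnfsf4, 11 each at Tnfsf9 and Tnfsf13b, 10 at Tnfsf14, 8 at Ltb, 6 at Tnfsf10, 5 at Lta and 2 at Tnf. All 98 passed the filter on low counts and were tested. ATAC-seq, which reads open DNA from where a transposase can cut it, was run on 24 libraries in 4 groups of 6: WT and AhR-KO cells, each unstimulated or treated with LPS. WT marrow came from C57BL/6J mice, and AhR-KO marrow from B6.129-Ahr tm1Bra/J mice, which lack the aryl hydrocarbon receptor (AhR, a transcription factor switched on by small molecules) in every tissue. Effects on the marrow donor, on differentiation and on the cultured cell therefore cannot be told apart. Donors were male and female, matched for sex and age and between 7 and 14 weeks old. Every culture received GM-CSF (10 ng/ml), TGF-β (2 ng/ml) and 10% serum, which gives macrophages resembling those of the lung alveoli, and stimulated ones received lipopolysaccharide (LPS, from the bacterial cell wall) at 97 EU/ml from day 6 for 24 h. The labels add 5 µM of a calcium ionophore for 10 min, and attach the whole treatment text, LPS included, to unstimulated libraries as well. Each library was a bulk sample of cultured cells, so a smaller share of cells with an open site and a less open site in each cell cannot be told apart.

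Most ligands of this superfamily are made as trimers on the cell surface, and some are shed. The ligands bind receptors that signal through TRAF adaptors to NF-κB, and several receptors carry a death domain through which caspases are activated. Macrophages are a main source of TNF, which LPS is known to induce through Toll-like receptor 4. Several other members act from antigen-presenting cells on lymphocytes: Tnfsf4 encodes OX40L, Tnfsf9 4-1BBL, Tnfsf8 CD30L, Tnfsf14 LIGHT and Tnfsf15 TL1A, all costimulators of T cells. Lta and Ltb encode the lymphotoxins, which organise lymphoid tissue, Tnfsf10 encodes the death ligand TRAIL, and Tnfsf13b encodes BAFF, a survival factor of B cells.

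Each library held 8.54 to 34.6 Mcounts (1e6 counts) in consensus peaks, the lowest in WT unstimulated replicate 5. Levels are given as CPM, counts per 1e6 of the normalised total. The starts of all 7 macrophage markers and all 4 markers of alveolar macrophages lay under peaks, while none of the 4 T cell and none of the 4 B cell markers had a peak over its start. Of the other lists, Klrb1c (1 of 2 NK cell markers), S100a8 (1 of 4 neutrophil markers), Pdgfra (1 of 2 fibroblast markers) and all 3 dendritic cell markers had a peak there. Several sums of these marker peaks moved with the groups. Without LPS the macrophage sum was 175 to 194 CPM in WT and 206 to 279 CPM in AhR-KO, the alveolar sum 28.6 to 33.5 and 36.2 to 46.2 CPM, Klrb1c 14.9 to 17.7 and 18.7 to 24.01 CPM, and S100a8 17.7 to 22.1 and 22.7 to 26.9 CPM, with no overlap between genotypes. With LPS the dendritic cell sum was 25.1 to 34.8 CPM in WT and 18.2 to 22.9 CPM in AhR-KO, Pdgfra 12.8 to 18.9 and 10.9 to 12.3 CPM, and Klrb1c 13.3 to 16.2 and 18.1 to 21.2 CPM, again with no overlap. Other sums were lower with LPS, without overlap with the unstimulated libraries of the genotype. In both genotypes these were the macrophage sum (154 to 172 CPM in WT and 146 to 202 CPM in AhR-KO) and the alveolar sum (21.2 to 24.3 and 21.5 to 27.6 CPM). In AhR-KO they were also S100a8 (16.1 to 18.2 CPM), the dendritic cell sum (from 26.2 to 32.3 CPM without LPS) and Pdgfra (from 15.2 to 17.9 CPM without LPS). Single markers did not all follow these sums. Per kb of peak, mean Csf1r rose with LPS (14.7 to 23.3 CPM in WT, 17.1 to 27.1 in AhR-KO). Adgre1 hardly moved, and the other macrophage markers were lower with LPS. Mean Flt3 was lower in AhR-KO than in WT without LPS (3.17 against 7.05 CPM) and with it (3.67 against 8.99). Cd209a had the same order of genotypes, and Zbtb46 only with LPS. With LPS, Zbtb46 and Cd209a were lower in each genotype and Flt3 was not. The part of these differences in the results below was not tested. A peak counted as a differentially accessible region (DAR) when its adjusted p in edgeR's quasi-likelihood test was at most 0.05 and its fold change at least 1.5. Fold changes are on the log2 scale, with the standard error (SE), and distances run from the 5′ end of the gene to the middle of the peak.

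Sequences are shown for regions on which the comparisons below turn: the promoters of Tnf, Tnfsf10 and Tnfsf8, the members with the widest genotype differences at the start without LPS, and the middle 300 bases of 5 distal peaks with large changes at Tnfsf4, Tnfsf15 and Tnfsf8. The reference was GRCm38.p6 (the assembly of mm10), and the promoters came from RefSeq's table, which held 8 of the 10 members (Tnfsf9 and Tnfsf4 were not among them). Only bases before the annotated start are printed. Capitals mark matches, on either strand, to GCGTG (core of the AhR and ARNT site), GGNNTTTCC (NF-κB), TGANTCA (AP-1), GAGGAAGT (PU.1), TTGCNNAA (C/EBP) or GAAANNGAA (IRF).
Tnf promoter (chr17:35202008-35202257, minus strand): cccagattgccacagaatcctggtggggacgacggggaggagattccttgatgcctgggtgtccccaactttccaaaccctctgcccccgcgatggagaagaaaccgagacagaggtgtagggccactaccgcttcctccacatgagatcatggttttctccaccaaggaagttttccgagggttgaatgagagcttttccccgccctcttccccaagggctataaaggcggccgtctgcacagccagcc
Tnfsf10 promoter (chr3:27316827-27317027, plus strand): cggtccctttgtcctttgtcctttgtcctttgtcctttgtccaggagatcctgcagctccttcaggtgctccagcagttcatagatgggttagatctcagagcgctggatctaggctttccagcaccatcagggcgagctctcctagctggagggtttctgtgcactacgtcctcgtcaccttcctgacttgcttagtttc
Tnfsf8 promoter (chr4:63861348-63861534, minus strand): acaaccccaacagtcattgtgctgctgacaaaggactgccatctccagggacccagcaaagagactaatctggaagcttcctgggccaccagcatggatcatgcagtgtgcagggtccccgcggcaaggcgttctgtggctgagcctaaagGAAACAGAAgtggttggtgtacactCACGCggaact
Tnfsf4 peak 16.8 kb upstream (chr1:161378474-161378773, plus strand): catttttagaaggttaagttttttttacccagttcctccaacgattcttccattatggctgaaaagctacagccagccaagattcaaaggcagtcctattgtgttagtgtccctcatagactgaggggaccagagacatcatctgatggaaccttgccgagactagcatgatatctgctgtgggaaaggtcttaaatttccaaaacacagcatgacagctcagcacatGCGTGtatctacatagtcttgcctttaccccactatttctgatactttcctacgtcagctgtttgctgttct
Tnfsf4 peak 11.1 kb downstream (chr1:161406385-161406684, plus strand): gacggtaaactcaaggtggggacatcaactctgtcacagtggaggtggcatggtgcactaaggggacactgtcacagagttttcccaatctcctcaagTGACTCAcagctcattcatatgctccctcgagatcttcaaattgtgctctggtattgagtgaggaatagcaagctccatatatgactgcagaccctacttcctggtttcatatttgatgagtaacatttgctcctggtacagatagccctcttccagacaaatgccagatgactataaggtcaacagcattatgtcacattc
Tnfsf4 peak 29.1 kb downstream (chr1:161424309-161424608, plus strand): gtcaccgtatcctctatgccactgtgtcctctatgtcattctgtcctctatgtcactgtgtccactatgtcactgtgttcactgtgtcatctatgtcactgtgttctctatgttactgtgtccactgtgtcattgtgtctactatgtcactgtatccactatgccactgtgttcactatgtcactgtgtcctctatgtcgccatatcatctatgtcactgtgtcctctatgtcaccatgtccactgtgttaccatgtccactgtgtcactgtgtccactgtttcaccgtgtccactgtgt
Tnfsf15 peak 15.2 kb upstream (chr4:63760191-63760490, plus strand): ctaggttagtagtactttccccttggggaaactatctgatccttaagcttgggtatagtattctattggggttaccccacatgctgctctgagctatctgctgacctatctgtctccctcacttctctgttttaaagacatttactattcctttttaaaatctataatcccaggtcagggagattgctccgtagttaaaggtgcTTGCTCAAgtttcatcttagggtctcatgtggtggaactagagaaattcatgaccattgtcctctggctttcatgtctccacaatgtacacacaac
Tnfsf8 peak 13.9 kb downstream (chr4:63847290-63847589, plus strand): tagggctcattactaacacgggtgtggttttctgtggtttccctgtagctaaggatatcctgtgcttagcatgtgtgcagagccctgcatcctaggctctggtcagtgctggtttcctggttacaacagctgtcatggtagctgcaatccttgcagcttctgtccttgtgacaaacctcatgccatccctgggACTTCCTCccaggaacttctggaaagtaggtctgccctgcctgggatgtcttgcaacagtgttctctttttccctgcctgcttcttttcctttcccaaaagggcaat
A match is a description and not a site of binding. In the 300-base promoter windows, which reach 50 bases past the start, the AhR core was found at 2 of the 8 members (Tnfsf14 and Tnfsf8) and in 32.4% of all 32851 promoters, and the NF-κB motif at Ltb against 5.82% of all. AP-1 was found at Tnfsf14 and Tnfsf13b (7.81% of all), C/EBP at the same 2 genes (10.8%), IRF at Tnfsf13b and Tnfsf8 (8.56%) and PU.1 at none (3.2%). The window of the Tnfsf4 peak 29.1 kb downstream was a tandem repeat, in which 79.9% of bases equalled the base 17 positions earlier. In the windows of the other 97 peaks the best period of up to 60 bases reached 29.2% to 47.3%.

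The first comparison asked how LPS changed these regions, and it gave the larger changes. In WT, 38 of the 98 peaks were higher DARs with LPS and 11 were lower, where 25.4% of all 174193 tested peaks were higher and 21.6% lower. In AhR-KO, 42 were higher and 11 lower, against 27.3% and 21.5% of all. The share of higher DARs was 38.8% of the members in WT and 42.9% in AhR-KO. The median log2 fold change of the members was 0.21 in WT and 0.37 in AhR-KO, and that of all tested peaks was -0.014 and 0.046. The genotypes agreed in direction wherever both called a peak: 37 peaks were higher in both, 6 were lower in both and 0 were opposite. How many of all tested peaks were called in both genotypes, or in opposite directions, was not counted. The genes held unequal numbers of the DARs of LPS. At Tnfsf15, 10 of 17 peaks were higher DARs in WT and 12 in AhR-KO, and at Tnfsf4 these numbers were 9 and 10 of 13. Tnfsf9 had 6 higher DARs of 11 in each genotype. At Tnfsf13b only 1 of 11 peaks was a higher DAR in WT and 3 were in AhR-KO. The plot of every peak by gene shows these numbers.

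**Figure D1:**
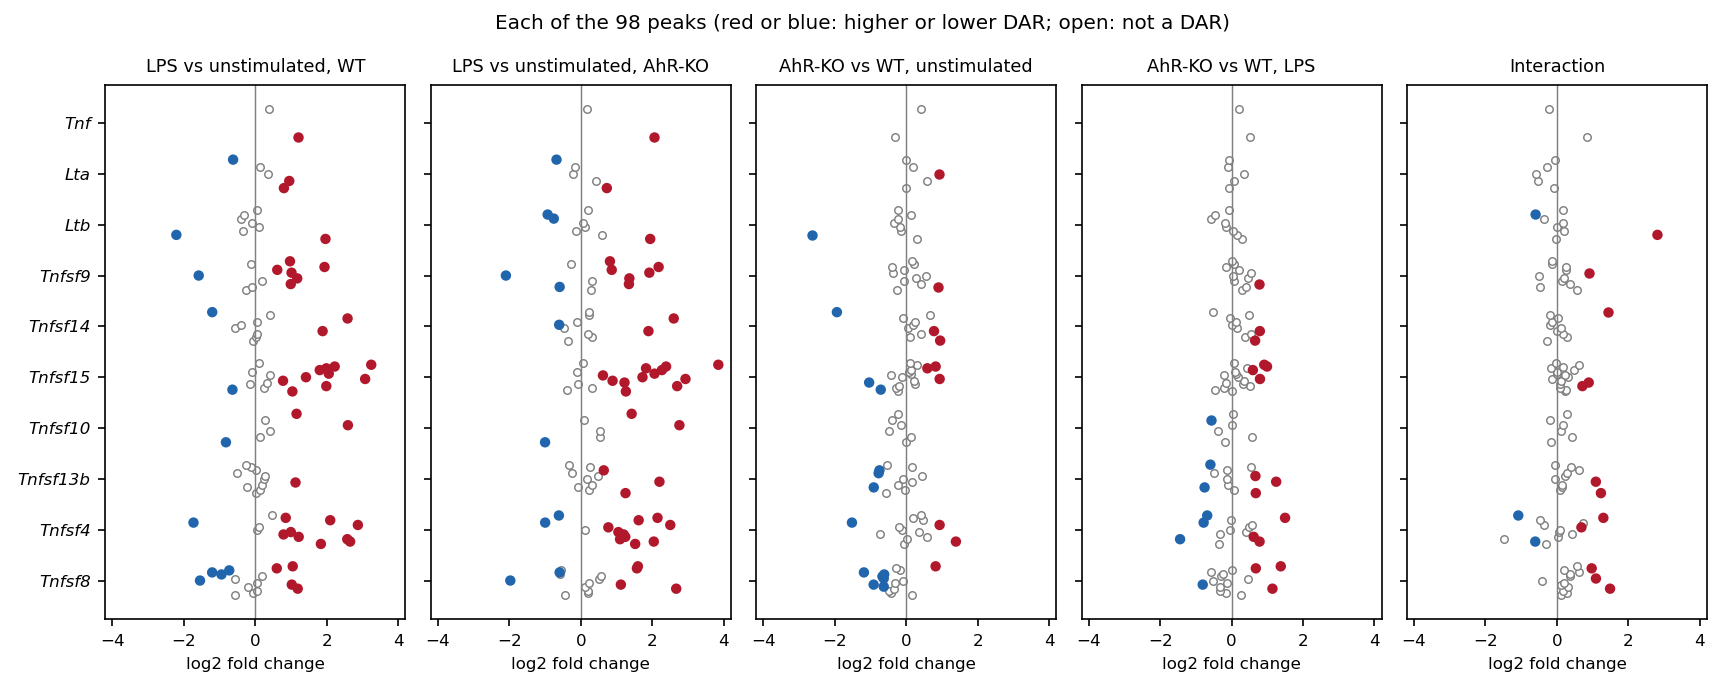
log2 fold change (x axis) of each of the 98 peaks, by ligand gene (rows), in the 5 comparisons (panels). Red and blue points are higher and lower DARs and open points are peaks that were not DARs. The higher DARs of LPS gather at Tnfsf15, Tnfsf4 and Tnfsf9, while Tnfsf8 holds 6 of the 14 lower DARs of AhR-KO against WT in unstimulated cells.

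Of all members, Tnfsf4 (OX40L) held the peak with the smallest p in each of the 4 comparisons between 2 groups, and these peaks lay away from its start. The peak over the start (chr1:161394675-161396868) overlapped between all groups, with 11.5 ± 1.88 CPM (mean ± SD, n = 6) in unstimulated WT, 10.5 ± 0.736 in unstimulated AhR-KO, 11.7 ± 0.858 in LPS-treated WT and 11.4 ± 0.86 in LPS-treated AhR-KO, and it was a DAR in no comparison. An intronic peak 11.1 kb downstream of the 5′ end (chr1:161406250-161406821) held 2.03 to 3.27 CPM (median 2.65) in unstimulated WT and 17.8 to 21.2 CPM (median 19.4) in LPS-treated WT. It held 3.83 to 6.26 CPM (median 4.98) in unstimulated AhR-KO and 27.6 to 30.9 CPM (median 29.1) in LPS-treated AhR-KO. All 6 LPS libraries lay above all 6 unstimulated libraries in each genotype, and all 6 AhR-KO libraries lay above all 6 WT libraries in each treatment. It rose with LPS by 2.87 (adjusted p 4.04e-23, SE 0.103) in WT and by 2.51 (adjusted p 1.99e-23, SE 0.0904) in AhR-KO. It was also a higher DAR of AhR-KO without LPS (0.94, adjusted p 3.30e-08, SE 0.115), while with LPS the genotype difference of 0.57 (adjusted p 2.53e-07, SE 0.0789) fell short of the fold threshold.

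The peak 16.8 kb upstream of Tnfsf4 (chr1:161377864-161379385), between genes, had the same order of groups. Its level ran from 1.99 to 3.47 CPM (median 2.35) in unstimulated WT, 6.0 to 7.24 CPM (median 6.9) in unstimulated AhR-KO, 12.8 to 19.3 CPM (median 16.1) in LPS-treated WT and 24.1 to 30.2 CPM (median 28.9) in LPS-treated AhR-KO, and no pair of these ranges overlapped. AhR-KO was higher by 1.39 (adjusted p 1.63e-11, SE 0.12) without LPS and by 0.78 (adjusted p 3.00e-09, SE 0.0856) with LPS, and these genotype differences themselves differed by -0.61 (adjusted p 0.00467, SE 0.149). The peak 29.1 kb downstream (chr1:161424027-161424892), beyond the 3′ end, behaved otherwise. It held 1.37 to 2.79 CPM (median 1.74) and 1.57 to 2.91 CPM (median 2.03) in WT and AhR-KO without LPS, which overlapped, and 2.77 to 4.43 CPM (median 3.25) and 8.55 to 11.7 CPM (median 9.14) with LPS, which did not. With LPS AhR-KO was higher by 1.5 (adjusted p 3.49e-11, SE 0.132), and the interaction, the genotype difference with LPS minus that without, was 1.3 (adjusted p 9.54e-05, SE 0.219). This is the peak whose middle is the tandem repeat printed above, and whether reads were placed uniquely there was not tested. Further peaks were chosen after their values were seen. One in an intron, 16.8 kb downstream (chr1:161412040-161412429), was lower with LPS and lower in AhR-KO, at 2.39 ± 0.539 CPM in unstimulated WT, 0.847 ± 0.0744 in unstimulated AhR-KO, 0.73 ± 0.137 in LPS-treated WT and 0.418 ± 0.12 in LPS-treated AhR-KO, a DAR in all 4 comparisons between 2 groups, and it was called in 4 libraries. The peak 19.3 kb upstream (chr1:161374963-161377246) rose with LPS from 4.78 ± 0.591 to 16.9 ± 4.6 CPM in WT and from 4.59 ± 0.438 to 13.2 ± 1.13 CPM in AhR-KO. Over all 13 peaks the summed level of Tnfsf4 was 32.3 ± 3.20 CPM in unstimulated WT, 36.6 ± 2.35 in unstimulated AhR-KO, 79.04 ± 7.73 in LPS-treated WT and 102 ± 3.65 in LPS-treated AhR-KO.

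**Figure D2:**
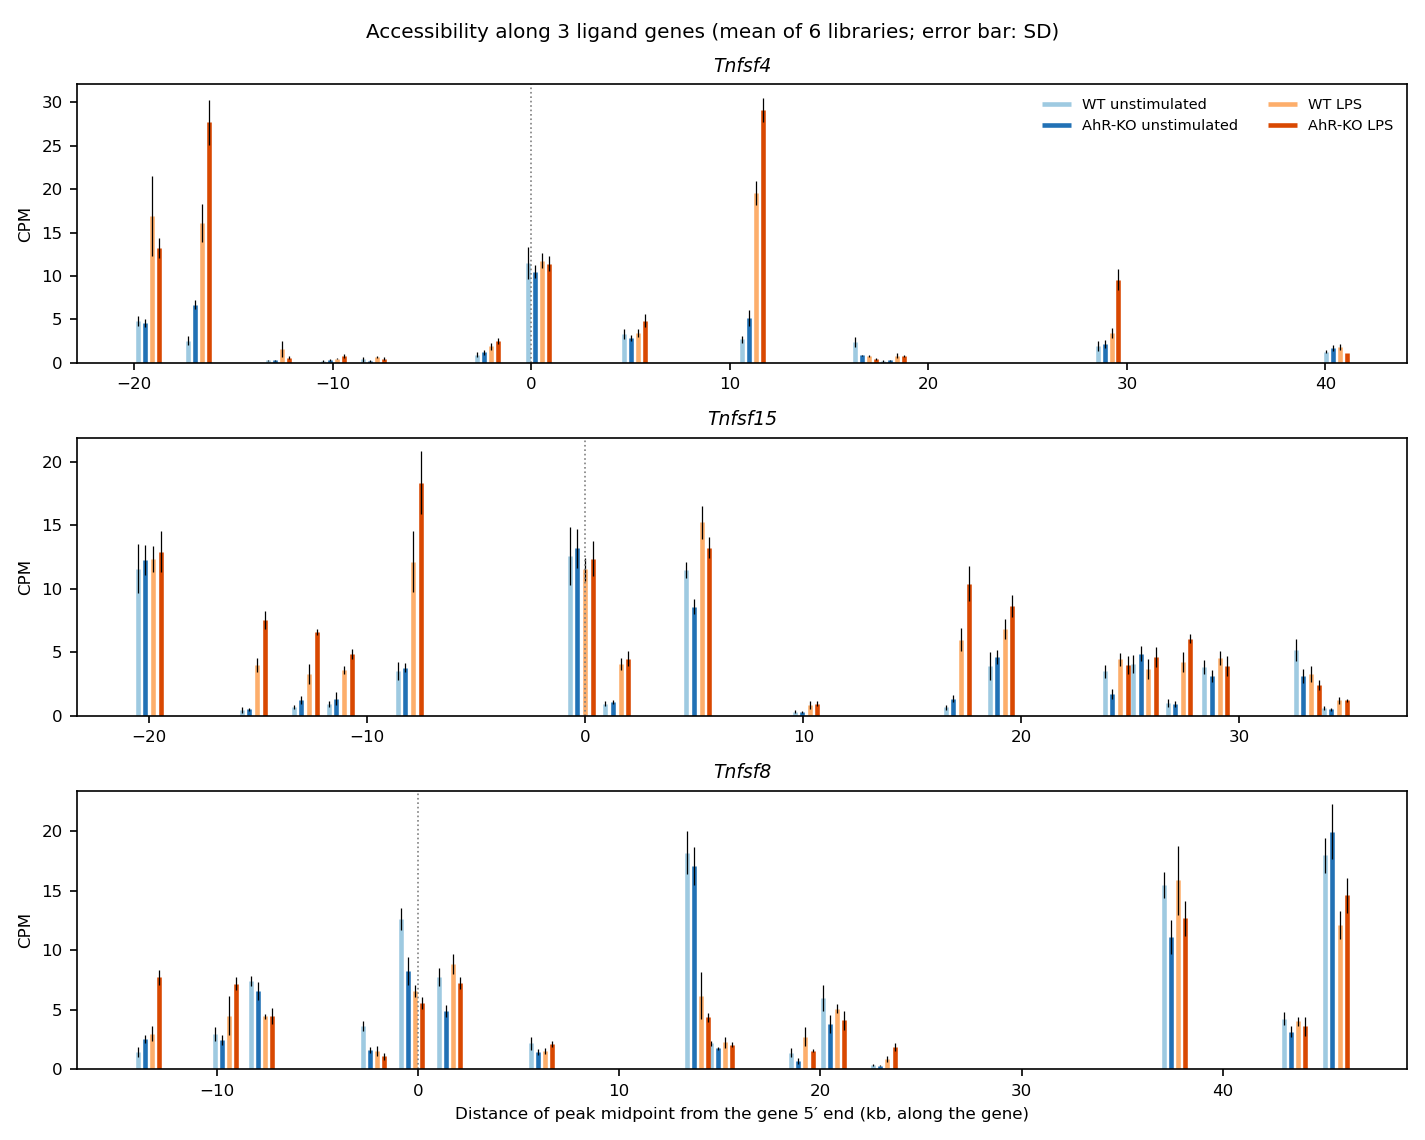
Mean CPM (y axis, bars; error bars are the SD of 6 libraries) of every peak of Tnfsf4, Tnfsf15 and Tnfsf8 against the distance of its middle from the gene's 5′ end in kb (x axis), with 1 bar per group. At Tnfsf4 and Tnfsf15 the bars at the start overlap within their SDs while peaks on both sides rise with LPS, and at Tnfsf8 the start and the peak 13.9 kb downstream are lower with LPS.

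Tnfsf15 (TL1A) held the peak with the largest log2 fold change of LPS of all members in each genotype. The peak over its start (chr4:63744756-63745837) held 9.33 to 15.8 CPM (median 12.5) in unstimulated WT and 10.6 to 14.3 CPM (median 12.6) in LPS-treated AhR-KO, with the other groups within or overlapping this range, and was a DAR in no comparison. The peak 15.2 kb upstream (chr4:63759888-63760795), between genes, held 0.23 to 0.858 CPM (median 0.387) in unstimulated WT, 0.365 to 0.708 CPM (median 0.481) in unstimulated AhR-KO, 3.55 to 4.83 CPM (median 3.74) in LPS-treated WT and 6.24 to 8.07 CPM (median 7.73) in LPS-treated AhR-KO. It was called as a peak in 0 of the 12 unstimulated and all 12 LPS libraries. Its rise with LPS was 3.24 (adjusted p 5.06e-17, SE 0.191) in WT and 3.85 (adjusted p 4.15e-21, SE 0.167) in AhR-KO. The genotypes overlapped without LPS (0.31, adjusted p 0.38, SE 0.265) and not with LPS, where AhR-KO was higher by 0.91 (adjusted p 1.43e-07, SE 0.122). The interaction of 0.61 (adjusted p 0.171, SE 0.299) did not pass the threshold, so these genotype differences were not shown to differ. A peak 12.8 kb upstream (chr4:63757674-63758241) was a higher DAR of AhR-KO in both treatments, by 0.83 (adjusted p 0.00151, SE 0.207) without and 0.99 (adjusted p 8.10e-08, SE 0.128) with LPS. It held 3.32 ± 0.789 CPM in LPS-treated WT and 6.6 ± 0.218 in LPS-treated AhR-KO (SD, n = 6). The peak over an untranslated part of an exon, 17.1 kb downstream (chr4:63727683-63728438), rose with LPS by 3.07 (adjusted p 1.58e-18, SE 0.16) in WT and by 2.93 (adjusted p 1.86e-20, SE 0.134) in AhR-KO. Beyond the 3′ end, the peak 24.3 kb downstream (chr4:63720275-63721258) was lower in AhR-KO without LPS, at 1.19 to 2.19 CPM (median 1.63) against 2.79 to 4.23 CPM (median 3.49) in WT (-1.04, adjusted p 6.38e-07, SE 0.149). With LPS the genotypes overlapped, and the interaction was 0.89 (adjusted p 0.00175, SE 0.195). A further peak that rose with LPS, chosen after its values were seen, lay 8.08 kb upstream (chr4:63752674-63753720) and held 3.52 ± 0.722 CPM in unstimulated WT, 3.79 ± 0.347 in unstimulated AhR-KO, 12.1 ± 2.42 in LPS-treated WT and 18.4 ± 2.49 in LPS-treated AhR-KO (SD, n = 6).

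Tnfsf9 (4-1BBL) was a member whose start site itself opened with LPS. The peak over the start (chr17:57104402-57106147) held 8.39 to 11.1 CPM (median 9.81) in unstimulated WT and 12.1 to 17.7 CPM (median 14.4) in LPS-treated WT, and 7.87 to 10.1 CPM (median 9.73) in unstimulated AhR-KO and 15.4 to 19.2 CPM (median 16.9) in LPS-treated AhR-KO. LPS and unstimulated libraries did not overlap in either genotype. The rise was 0.61 (adjusted p 2.10e-07, SE 0.0889) in WT, which dropped under the fold threshold without any one of WT unstimulated replicate 3 (0.57) and WT LPS replicates 2 (0.57) and 6 (0.56), and 0.87 (adjusted p 5.52e-11, SE 0.0874) in AhR-KO. A peak 3.62 kb downstream (chr17:57108716-57109180), past the 3′ end, rose by 1.93 (adjusted p 1.11e-16, SE 0.117) in WT and 2.18 (adjusted p 2.95e-18, SE 0.119) in AhR-KO. By contrast, a peak 2.88 kb upstream (chr17:57102294-57102603) fell, from 5.82 ± 0.691 to 1.93 ± 0.192 CPM in WT and from 8.53 ± 0.867 to 2.0 ± 0.331 CPM in AhR-KO (SD, n = 6), with log2 fold changes of -1.59 (adjusted p 2.25e-14, SE 0.116) and -2.1 (adjusted p 2.86e-18, SE 0.114). Farther upstream, 10.9 kb from the start and nearer to the start of Tubb4a, a peak (chr17:57093712-57095126) separated all 4 groups. It held 5.5 to 7.59 CPM (median 6.49), 7.77 to 9.3 CPM (median 8.68), 11.9 to 14.1 CPM (median 12.9) and 18 to 24.9 CPM (median 22.1) in unstimulated WT, unstimulated AhR-KO, LPS-treated WT and LPS-treated AhR-KO. The genotype difference was 0.76 (adjusted p 4.31e-10, SE 0.0757) with LPS, a DAR, and 0.40 (adjusted p 3.43e-04, SE 0.0889) without LPS, which was not. In the reference, 71.4% of this peak is marked as repeat sequence. A peak 14.4 kb upstream (chr17:57090760-57090997), also nearer to the start of Tubb4a, was a higher DAR of AhR-KO without LPS (0.90, adjusted p 2.08e-06, SE 0.138). With LPS the difference of 0.41 (adjusted p 0.0118, SE 0.134) was below the fold threshold.

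Tnfsf8 (CD30L) had peaks in both directions, with 4 higher and 4 lower DARs of LPS among its 15 peaks in WT and 4 higher and 2 lower in AhR-KO (medians -0.060 and 0.21), and its start was among those at lower levels. The peak over its start (chr4:63860882-63862481) held 10.9 to 13.6 CPM (median 12.8) in unstimulated WT, 6.49 to 9.85 CPM (median 8.3) in unstimulated AhR-KO, 5.8 to 7.2 CPM (median 6.54) in LPS-treated WT and 4.95 to 6.33 CPM (median 5.4) in LPS-treated AhR-KO. Unstimulated WT libraries lay above all others. The start was a lower DAR of LPS in WT (-0.95, adjusted p 1.42e-11, SE 0.0893). In AhR-KO the difference of -0.57 (adjusted p 1.34e-06, SE 0.0928) was just short of the fold threshold, although the libraries did not overlap. Without LPS it was lower in AhR-KO (-0.61, adjusted p 7.99e-07, SE 0.0897), a call lost without AhR-KO unstimulated replicate 2 (-0.56), with RLE size factors (-0.55) and with DESeq2 (-0.55). The neighbouring peak 2.18 kb upstream (chr4:63863337-63863719) changed in the same direction, from 3.63 ± 0.392 CPM in WT to 1.6 ± 0.29 in AhR-KO without LPS (-1.18, adjusted p 4.46e-07, SE 0.167) and to 1.56 ± 0.422 in LPS-treated WT (-1.21, adjusted p 3.83e-08, SE 0.161). Inside the gene, a peak 13.9 kb downstream (chr4:63847094-63847787) stood high in unstimulated cells, with 15.6 to 20.8 CPM (median 18) in WT and 15.3 to 19.6 CPM (median 17.2) in AhR-KO. It fell with LPS to 3.49 to 9.42 CPM (median 6.25) in WT and 3.84 to 4.71 CPM (median 4.42) in AhR-KO, log2 fold changes of -1.55 (adjusted p 1.11e-11, SE 0.131) and -1.97 (adjusted p 7.32e-14, SE 0.137). A peak 13.4 kb upstream (chr4:63874466-63875011) rose instead, and in AhR-KO it was higher than in WT by 0.82 (adjusted p 1.06e-04, SE 0.165) without LPS and by 1.38 (adjusted p 7.66e-11, SE 0.126) with LPS. Of the 15 peaks of Tnfsf8, 6 were lower and 1 was a higher DAR in unstimulated AhR-KO, and with LPS 1 was lower and 3 were higher. The summed level was 103.8 ± 4.04 CPM in unstimulated WT, 85.5 ± 7.53 in unstimulated AhR-KO, 79.4 ± 4.40 in LPS-treated WT and 80.2 ± 4.94 in LPS-treated AhR-KO.

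**Figure D3:**
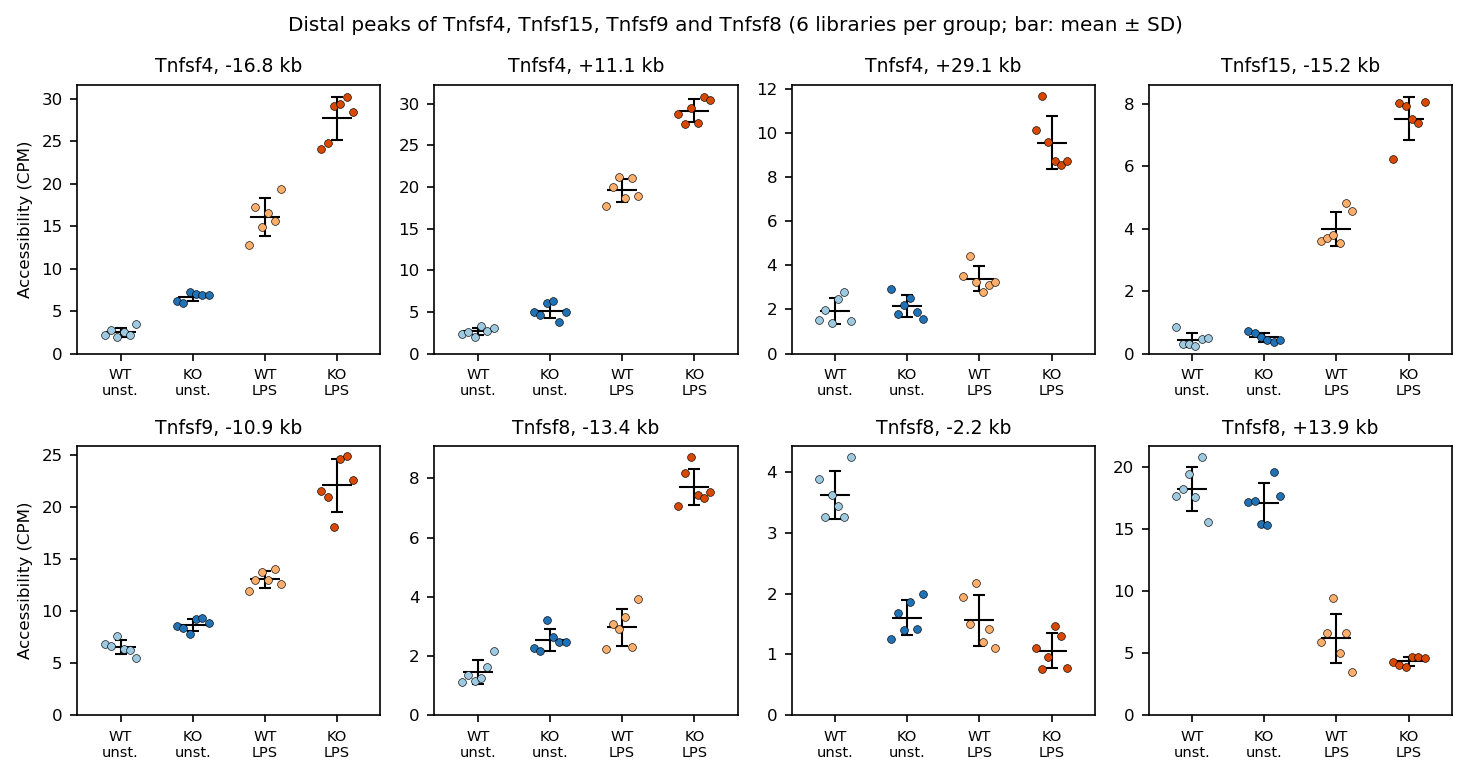
CPM (y axis) of 8 distal peaks in the 6 libraries of each group (x axis; KO is AhR-KO, unst. is unstimulated), with mean and SD as bars. LPS-treated AhR-KO libraries lie above all others at the 4 upper peaks and at the left 2 lower ones. At the right 2 lower panels the unstimulated WT libraries are high, in the last panel together with the unstimulated AhR-KO libraries.

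Tnfsf14 (LIGHT) combined a start site at lower levels with LPS and distal peaks at higher ones. The peak over the start (chr17:57193712-57195821) held 29 to 33.9 CPM (median 32.8) in unstimulated WT and 19.5 to 26.8 CPM (median 25.1) in LPS-treated WT, and 33.7 to 39.8 CPM (median 36.5) in unstimulated AhR-KO and 22.3 to 27 CPM (median 24) in LPS-treated AhR-KO. LPS libraries lay below all unstimulated ones in each genotype. The fall was a DAR in AhR-KO (-0.60, adjusted p 2.91e-10, SE 0.0653), a call lost without AhR-KO unstimulated replicate 2 or AhR-KO LPS replicate 6 (both -0.58), and in WT it was -0.41 (adjusted p 1.65e-06, SE 0.0659), short of the fold threshold. The interaction of -0.20 (adjusted p 0.145, SE 0.0927) did not pass. Downstream of the gene, a peak 8.37 kb from the start (chr17:57185593-57186028) rose from 1.2 ± 0.282 to 4.58 ± 0.569 CPM in WT and from 2.13 ± 0.478 to 7.95 ± 0.655 CPM in AhR-KO (SD, n = 6), with log2 fold changes of 1.88 (adjusted p 1.07e-13, SE 0.146) and 1.89 (adjusted p 1.03e-15, SE 0.127). It was a higher DAR of AhR-KO without LPS (0.78, adjusted p 1.80e-04, SE 0.162) and with LPS (0.79, adjusted p 5.10e-07, SE 0.113). A peak 7.93 kb upstream (chr17:57201811-57202401) rose by 2.58 (adjusted p 5.60e-14, SE 0.196) in WT and 2.6 (adjusted p 1.24e-14, SE 0.191) in AhR-KO, with overlapping genotypes in both treatments. In a coding exon of the neighbouring gene C3, a weak peak of 170 bases (chr17:57209494-57209663) held 0.582 to 1.35 CPM (median 1.15) in unstimulated WT and 0.174 to 0.472 CPM (median 0.241) in unstimulated AhR-KO (-1.94, adjusted p 3.97e-07, SE 0.272). It was called in 1 of 24 libraries.

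Tnf, Lta and Ltb lie side by side on chromosome 17. The peak over the start of Tnf (chr17:35200314-35202742), the larger of its 2 peaks, held 21.3 to 25.3 CPM (median 22.9) in unstimulated WT and 25.6 to 34.7 CPM (median 31.5) in unstimulated AhR-KO, which did not overlap, and the difference of 0.41 (adjusted p 0.00221, SE 0.105) was below the fold threshold. With LPS it held 26.7 to 33.6 CPM (median 30.6) in WT and 24.7 to 44.8 CPM (median 34.7) in AhR-KO, which overlapped widely (0.20, adjusted p 0.11, SE 0.0997). The rise with LPS was 0.38 (adjusted p 0.00198, SE 0.104) in WT, without overlap but below the fold threshold. In AhR-KO it was 0.17 (adjusted p 0.142, SE 0.101), with overlap. The other peak, 3.44 kb downstream (chr17:35198112-35199027) between Tnf and Ltb, was called in 2 LPS-treated AhR-KO libraries and in no other. It rose with LPS from 1.09 to 2.31 CPM (median 2.12) to 3.36 to 5.24 CPM (median 4.17) in WT and from 1.01 to 1.85 CPM (median 1.52) to 2.48 to 9.76 CPM (median 6.3) in AhR-KO, by 1.2 (adjusted p 3.20e-04, SE 0.266) and 2.04 (adjusted p 1.30e-07, SE 0.26), with no overlap in either. A peak 4.87 kb upstream of Lta (chr17:35209553-35210898), between genes, rose with LPS by 0.95 (adjusted p 1.27e-10, SE 0.0976) in WT. In AhR-KO it stood at 10.4 ± 0.877 CPM without LPS, against 6.98 ± 0.928 in WT, and at 14 ± 2.19 with LPS (SD, n = 6), a difference of 0.43 (adjusted p 1.06e-04, SE 0.0924). The interaction of -0.52 (adjusted p 0.00737, SE 0.134) was short of the fold threshold. A peak 9.76 kb upstream of Lta, nearer to the start of Gm16181 and called in 2 libraries, was higher in AhR-KO without LPS (0.93, adjusted p 3.61e-04, SE 0.206). With LPS this difference was 0.35 (adjusted p 0.118, SE 0.183). Another peak, 17.1 kb upstream (chr17:35222197-35222722), fell with LPS by -0.62 (adjusted p 4.17e-06, SE 0.107) in WT and -0.68 (adjusted p 8.33e-07, SE 0.107) in AhR-KO. No peak covered the start of Lta, and the nearest, 2.99 kb upstream (chr17:35208160-35208522), held 0.804 ± 0.153 CPM in unstimulated WT and rose with LPS by 0.80 (adjusted p 5.66e-04, SE 0.196) in WT and 0.73 (adjusted p 0.0012, SE 0.193) in AhR-KO. Ltb had no peak over its start either, and the one inside the gene (chr17:35194954-35196080) held from 6.34 ± 0.915 CPM in unstimulated AhR-KO to 7.7 ± 0.845 in LPS-treated WT and was a DAR in no comparison. Just upstream of Ltb, 1.28 kb from its start (chr17:35192880-35193442), a peak chosen after its values were seen held 4.43 to 5.7 CPM (median 5.25) in unstimulated AhR-KO and 2.17 to 3.87 CPM (median 2.63) in LPS-treated AhR-KO, without overlap, a lower DAR (-0.93, adjusted p 1.94e-08, SE 0.121). In WT it stood at 4.75 ± 0.733 CPM without and 3.77 ± 0.212 CPM with LPS (SD, n = 6), a difference of -0.33 (adjusted p 0.015, SE 0.119) that fell short of the fold threshold, and the interaction was -0.60 (adjusted p 0.0138, SE 0.169). Farther upstream, in an intron of the neighbouring gene Aif1 (chr17:35174469-35174796), a peak rose with LPS by 1.96 (adjusted p 1.91e-13, SE 0.156) in WT and 1.94 (adjusted p 1.40e-14, SE 0.143) in AhR-KO. Another peak in that gene (chr17:35175423-35175717), of 295 bases, held 1.01 to 1.65 CPM (median 1.31) in unstimulated WT, all above the other 18 libraries, whose highest was 0.475 CPM. Its genotype difference without LPS was -2.65 (adjusted p 4.64e-09, SE 0.297) and its interaction 2.81 (adjusted p 3.99e-05, SE 0.445), and it was called in 2 unstimulated WT libraries only.

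For Tnfsf10 (TRAIL), the peak over the start (chr3:27316655-27318007) held 9.19 to 14.7 CPM (median 13.6) in unstimulated WT, 7.59 to 10.9 CPM (median 9.12) in unstimulated AhR-KO, 14.8 to 20.1 CPM (median 16.8) in LPS-treated WT and 11.6 to 15.6 CPM (median 12.6) in LPS-treated AhR-KO. LPS and unstimulated libraries of a genotype did not overlap, and those of the genotypes did. No difference reached the fold threshold: AhR-KO stood at -0.48 (adjusted p 6.63e-04, SE 0.112) against WT without LPS and at -0.37 (adjusted p 0.00381, SE 0.103) with LPS, and LPS at 0.41 (adjusted p 0.00108, SE 0.106) in WT and 0.53 (adjusted p 7.36e-05, SE 0.109) in AhR-KO. Past the 3′ end, a peak nearer to the start of Ghsr (chr3:27345342-27345987) rose with LPS by 1.15 (adjusted p 4.04e-12, SE 0.103) in WT and 1.42 (adjusted p 8.15e-15, SE 0.103) in AhR-KO. Over an untranslated part of an exon, a peak 21.6 kb downstream (chr3:27338436-27338886) was lower in AhR-KO with LPS (-0.59, adjusted p 4.89e-04, SE 0.135, all 6 libraries below all WT ones), a call lost without WT LPS replicate 5 (-0.58), WT LPS replicate 6 (-0.55), AhR-KO LPS replicate 2 (-0.51) or AhR-KO LPS replicate 3 (-0.56).

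At Tnfsf13b (BAFF), the peak over the start (chr8:10006234-10007913) held 36.5 to 46.6 CPM (median 41.2) in unstimulated WT, 37.5 to 45.2 CPM (median 41.1) in unstimulated AhR-KO, 39.6 to 52 CPM (median 44.8) in LPS-treated WT and 45.2 to 51 CPM (median 47.6) in LPS-treated AhR-KO, and it was a DAR in no comparison. AhR-KO and WT differed inside the gene, in both directions. A peak over a coding exon 24.6 kb downstream (chr8:10030469-10031598) was lower in AhR-KO without LPS, at 4.45 to 7.11 CPM (median 5.79) against 9.14 to 11 CPM (median 9.6) (-0.77, adjusted p 9.12e-08, SE 0.10), and it stood at -0.50 (adjusted p 7.62e-05, SE 0.099) with LPS. An intronic peak 19.9 kb downstream (chr8:10026045-10026658) was higher in all 6 AhR-KO libraries in each treatment, a DAR with LPS (0.67, adjusted p 5.86e-08, SE 0.0849) and 0.45 (adjusted p 1.50e-04, SE 0.093) without. Just upstream of the start, 1.37 kb away (chr8:10004917-10005279), a peak rose with LPS in AhR-KO, from 3.43 ± 1.08 to 8.2 ± 1.92 CPM (1.25, adjusted p 1.74e-06, SE 0.192), and stood at 4.96 ± 1.5 and 5.11 ± 1.02 CPM in WT (SD, n = 6). With LPS AhR-KO was higher by 0.68 (adjusted p 0.00282, SE 0.179), and the interaction was 1.23 (adjusted p 0.00273, SE 0.272). A weak intronic peak 9.89 kb downstream (chr8:10016038-10016679) rose in both genotypes, to 0.921 ± 0.186 CPM in LPS-treated WT and 2.21 ± 0.62 CPM in LPS-treated AhR-KO. Its interaction was 1.09 (adjusted p 0.0466, SE 0.38), close to the threshold of 0.05. In the reference, 57.2% of this peak is marked as repeat sequence.

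**Figure D4:**
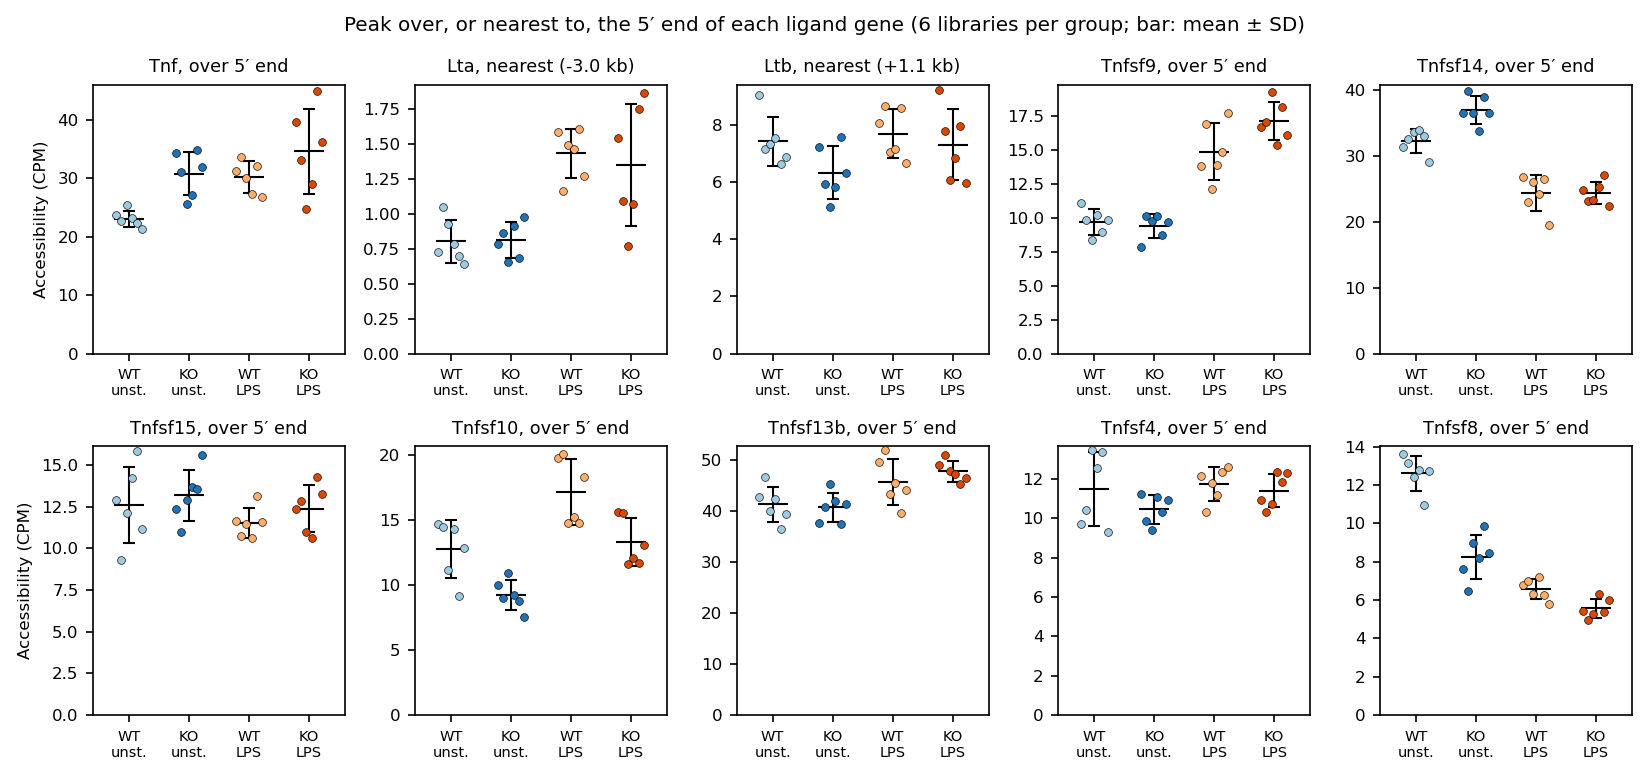
CPM (y axis, from 0) of the peak over the 5′ end of each gene, or for Lta and Ltb the nearest peak, in the 6 libraries of each group (x axis; KO is AhR-KO, unst. is unstimulated), with mean and SD as bars. With LPS, Tnfsf9 and Tnfsf10 are higher and Tnfsf14 and Tnfsf8 lower in each genotype, without overlap. Not all of these differences reach the fold threshold. Tnfsf4 and Tnfsf15 overlap between groups.

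Divided by peak length, the level at the starts could be set side by side. In unstimulated WT cells it was 24.6 ± 2.05 CPM per kb (SD, n = 6) at Tnfsf13b, 15.3 ± 0.868 at Tnfsf14, 11.6 ± 2.11 at Tnfsf15, 9.5 ± 0.565 at Tnf and 9.46 ± 1.64 at Tnfsf10. It was 7.88 ± 0.572 at Tnfsf8, 6.59 ± 0.759 at the Ltb peak, 5.56 ± 0.541 at Tnfsf9, 5.23 ± 0.857 at Tnfsf4 and 2.21 ± 0.422 at the Lta peak. Neighbours in this order from Tnfsf15 to Tnfsf4 differed by less than the sum of their SDs, while Tnfsf13b, Tnfsf14 and Lta stood apart from theirs. Of the 8 members with a peak over the start, the start was a DAR at 3 (Tnfsf9, Tnfsf14 and Tnfsf8), while 29 of all 98 peaks were a DAR in no comparison. Of the 98 peaks, 57 lay between genes, 23 in introns, 9 over annotated starts, 7 in coding exons and 2 in untranslated exon parts, and 39 were called in all 24 libraries. For all consensus peaks, neither the share with no DAR nor the number of libraries calling each was counted.

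The second comparison asked how AhR-KO and WT differed. Without LPS, AhR-KO had 10 higher and 14 lower DARs among the 98 peaks, where 9.95% of all tested peaks were higher and 12.6% lower. With RLE size factors, as with DESeq2, these counts became 12 and 11, so that the balance of directions depended on the scaling. With LPS, 16 were higher and 7 lower, against 13.4% and 13.1% of all, which is 16.3% and 7.14% of the members. The members' median was -0.050 without LPS and 0.059 with LPS, beside -0.021 and 0.021 over all tested peaks. Peaks called in both treatments kept their direction, with 6 higher in both, 3 lower in both and 0 opposite. The same count over all tested peaks was not made. The interaction was a DAR at 15 members, 12 with a genotype difference that was higher with LPS than without and 3 with one that was lower, against 5.83% and 4.58% of all tested peaks. With DESeq2 these were 9 and 4. Tnfsf4 held 4 of the 15, Tnfsf8 3, Ltb, Tnfsf15 and Tnfsf13b 2 each, Tnfsf9 and Tnfsf14 1 each, and Tnf, Lta and Tnfsf10 none.

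**Figure D5:**
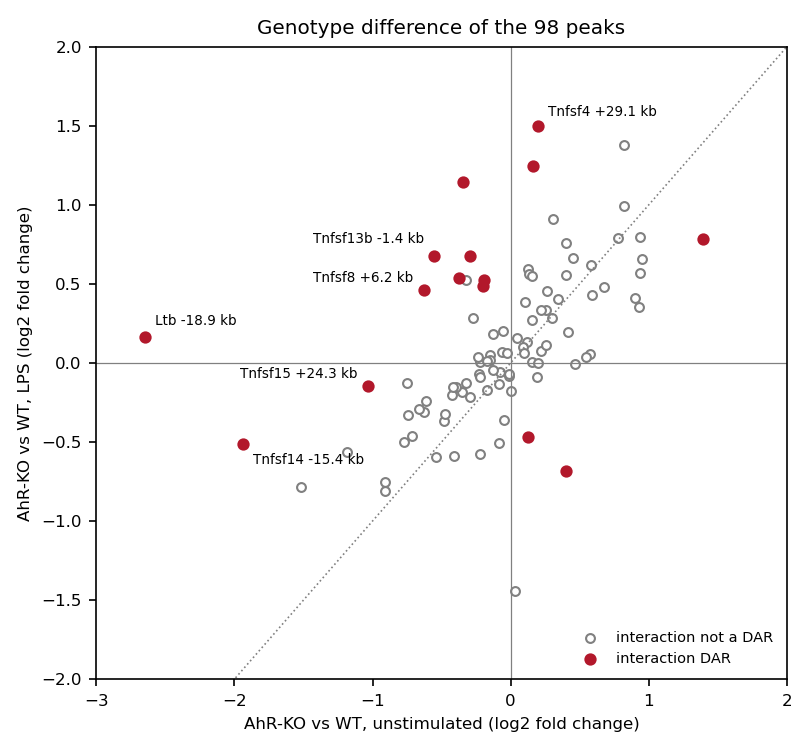
log2 fold change of AhR-KO against WT in unstimulated (x axis) and LPS (y axis) libraries for the 98 peaks. Filled points are DARs of the interaction, of which 6 are labelled with gene and distance from the 5′ end, and on the dotted line both differences would be equal. Most filled points lie above the line, and the Ltb point at the far left is the weak peak in Aif1.

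Motif matches in the middle 300 bases of the peaks were counted as a description. The AhR core was present in 14.3% of the 98 members and in 16% of all consensus peaks on chromosomes 1 to 19, X and Y. The AP-1 motif was present in 20.4% of the members, 17.9% of all peaks, and in 13 of the 37 peaks that were higher DARs of LPS in both genotypes. The NF-κB motif was present in 7.14% of the members (6.75% of all) and in 4 of these 37, C/EBP in 20.4% (15.7%) and in 9, IRF in 17.3% (10.9%) and in 5, and PU.1 in 10.2% (7.34%) and in 0 of the 37. Matches were not counted in all peaks of the series that were higher DARs of LPS in both genotypes. The numbers among the 37 therefore cannot be read as particular to the ligand genes.

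The partners of the ligands were read in the same fit. With LPS 25.4% of all tested peaks were higher and 21.6% lower in WT, and 27.3% and 21.5% in AhR-KO. Around 15 receptor genes, 54 of 162 peaks (33.3%) were higher and 21 (13%) lower DARs in WT, and 54 (33.3%) and 30 (18.5%) in AhR-KO. Tnfrsf9, the receptor of 4-1BBL, had 11 higher DARs of 19 in WT and 13 in AhR-KO, and Tnfrsf1b, which encodes the inducible TNF receptor, 8 and 13 of 20. At Tnfrsf1a, the broadly expressed TNF receptor, 0 of 11 peaks were higher and 3 and 5 were lower. Around 17 genes of signalling and shedding, 90 of 251 peaks (35.9%) were higher and 25 (9.96%) lower DARs in WT, and 95 (37.8%) and 33 (13.1%) in AhR-KO. Around the 8 other ligand genes, higher DARs had a share below that of all peaks, 10 of 60 (16.7%) in WT and 12 (20%) in AhR-KO, with 10 (16.7%) and 18 (30%) lower. The median log2 fold changes of the receptor, signalling and other ligand peaks with LPS in WT were 0.10, 0.27 and -0.18, and that of all tested peaks was -0.014.

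Between genotypes, 9.95% of all tested peaks were higher and 12.6% lower in AhR-KO without LPS, and 13.4% and 13.1% with LPS. The receptor genes had smaller shares than these without LPS, with 9 peaks (5.56%) higher and 12 (7.41%) lower. With LPS 12 (7.41%) were higher, again below the share of all peaks, and 19 (11.7%) lower. Of the signalling and shedding peaks, 40 (15.9%) were higher and 8 (3.19%) lower without LPS, and 33 (13.1%) and 17 (6.77%) with LPS. Tnfaip3, which encodes the NF-κB inhibitor A20, had 7 of 14 peaks higher without LPS and 4 with LPS, with 0 lower. Other genes of this list differed. Traf5 had 7 of 17 peaks higher and 0 lower without LPS, and 1 higher and 1 lower with LPS. At Birc2, 0 of 7 peaks were higher in either treatment, and 1 was lower without LPS and 4 with LPS. Of the other ligand peaks, 4 (6.67%) were higher and 10 (16.7%) lower without LPS, and 5 (8.33%) and 9 (15%) with LPS. Fasl, a death ligand of lymphocytes, had 5 lower DARs of 9 peaks without LPS and 6 with LPS.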

How the data were processed

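ATAC-seq libraries were made from 24 BMDM cultures in 4 groups of 6. The authors ran nf-core atacseq on mm10, called broad peaks per library with MACS2 and merged them into one consensus set. They deposited a table of raw counts of read pairs per consensus peak (featureCounts 2.0.1 per the file headers, with a minimum overlapping fraction of 0.2 and pairs counted in every peak they overlapped). They also deposited 1 broad peak list per library with fold enrichment (a ratio) and −log10 p and q values, and these lists were used here only for which libraries called a peak. Starts in the count table were raised by 1 to give 1-based positions, since all 184158 equalled 0-based starts of the peak lists. Aligner versions are not given in the sources used here.

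Counts were fitted with edgeR 4.0.16 (TMM scaling, the filter of filterByExpr, quasi-likelihood test, 1 term per group) over all 24 libraries and 174193 peaks, with Benjamini-Hochberg adjustment over all of them in each of 5 comparisons. No covariate was used. CPM are per 1e6 of the TMM-scaled total. Genes came from GENCODE vM21. Peaks were named for each gene by this rule: the peak over the 5′ end, or else the nearest, and the peak with the smallest p in each comparison. Not every named peak is described above. Gene members, gene lists, motifs and cell type markers were chosen with earlier results of these data known. Alternatives were the replicate block, RLE size factors, DESeq2 1.42.0, thinning, other thresholds, other windows around the genes and leaving out each library. The test was checked on simulated data with known changes. The p-values measure the spread between cultures. The study names 6 animals per group, and whether unstimulated and LPS cultures shared animals is not given in the sources used here. The total count of the shallowest library, 8.54 Mcounts, limits the weakest peaks.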

Additional observations from a re-analysis of the deposited data

Results flagged for a closer look

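At 8 of the named peaks the genotype difference itself differed between treatments by the interaction test in edgeR. The log2 difference (with LPS minus without) was 2.81 at the Ltb peak in the Aif1 intron and 1.43 at the Tnfsf14 peak in the C3 exon, both weak peaks called in 2 and 1 unstimulated WT libraries. It was 0.89 at the Tnfsf15 peak 24.3 kb downstream, 1.23 and 1.09 at the Tnfsf13b peaks 1.37 kb upstream and 9.89 kb downstream, and 1.09 at the Tnfsf8 intronic peak 6.15 kb downstream (chr4:63855048-63855345). At Tnfsf4 it was -0.61 at the peak 16.8 kb upstream, where the genotype difference was the larger one without LPS, and 1.30 at the peak 29.1 kb downstream. The interactions at the Tnfsf13b peak 9.89 kb downstream and the Tnfsf4 peak 16.8 kb upstream were not followed peak by peak in the alternative runs.

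In 6 of 168 groups of 6 libraries, over all named peaks, 1 library stood apart by Dixon's test, and chance gives about 1 in 20. The highest library was WT unstimulated replicate 3 at the Lta peak 9.76 kb upstream (chr17:35214975-35215250), with 1.32 CPM, AhR-KO unstimulated replicate 4 at the Tnfsf9 peak 3.62 kb downstream, with 2.95 CPM, WT unstimulated replicate 3 at the Tnfsf10 peak near Ghsr, with 4.90 CPM, and WT unstimulated replicate 1 at the Tnfsf13b exon peak, with 11.03 CPM. The lowest was AhR-KO unstimulated replicate 1 at the Tnfsf14 peak 7.93 kb upstream, with 0.197 CPM, and AhR-KO LPS replicate 1 at the Tnfsf15 peak 15.2 kb upstream, with 6.24 CPM.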

How the results depend on the processing

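No DAR at a named peak changed direction under any alternative run, and of 45 DARs among 98 pairs of named peak and comparison 41 were kept under all. Apart from those at the starts, named peaks were picked by their p in the same libraries, so this is no independent check. The counts of member DARs moved with the thresholds and the window. Shares of all tested peaks were counted only in the main fit at the main thresholds. Whether the members differed from all tested peaks at other fold thresholds or in the alternative fits was therefore not tested. The window also changed the number of tested peaks, from 98 to 50 with 5 kb and to 166 with 50 kb. AhR-KO against WT without LPS had 24, which became 6 at a 2-fold threshold, 41 with no fold threshold, 13 with 5 kb around each gene and 45 with 50 kb. With LPS the 23 became 5, 52, 10 and 42 under these settings. For LPS in WT the 49 became 24 with 5 kb and 82 with 50 kb, and in AhR-KO the 53 became 29 and 83. The 15 interaction DARs became 8 at 2-fold, 7 with 5 kb and 8 when libraries were thinned to the lowest total. Thinning also cut the tested member peaks from 98 to 84. The 24, 23, 49 and 53 DARs of the comparisons between 2 groups became 23, 20, 41 and 45 with it. Leaving out each library in turn gave 22 to 26, 21 to 27, 47 to 50, 51 to 54 and 11 to 17 for the 5 comparisons in this order. The calls lost were those at the starts of Tnfsf9, Tnfsf14 and Tnfsf8 and at the Tnfsf10 exon peak given in the report, the last also lost with RLE (-0.57), DESeq2 (-0.58) and thinning (-0.56). The cause was not tested. Calls gained under at least 1 setting included the Tnf peak 3.44 kb downstream for AhR-KO with LPS (0.68 without AhR-KO LPS replicate 3) and the Lta peak 4.87 kb upstream for AhR-KO without LPS (0.64 with RLE).

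With the replicate number as a block, the counts were 24, 22, 50, 53 and 16, and within genotype 50 and 53 for LPS in WT and AhR-KO and 18 for the interaction. With 3 runs of consecutive sample numbers in the titles as a block they were 24, 23, 49, 53 and 16. Same-numbered libraries deviated together (correlation over 0.1) in 5 of 6 pairs of WT with and without LPS, 3 of 6 of AhR-KO, 2 of 6 between genotypes with LPS and 0 of 6 without. In 4, 3, 1 and 2 of these 6 pairs the library correlated best with its own number. Within genotype all these correlations were positive, 0.058 to 0.37 in WT and 0.011 to 0.23 in AhR-KO. Whether the numbers stand for shared animals is not given. The main fit did not use them as pairing, so any sharing within a genotype is ignored there.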

Other observations

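Of the summed levels of the 10 genes, those of Tnf and Lta had the largest SDs among LPS-treated AhR-KO libraries. Over the 2 Tnf peaks their sum ran from 27.1 to 51.9 CPM (SD 9.49, n = 6), beside 30.1 to 38.7 CPM in LPS-treated WT (SD 3.43), and over the 5 Lta peaks from 29.6 to 54.3 CPM (SD 9.42), beside 38.3 to 46.5 CPM (SD 3.14). Replicate 3 was the lowest of the 6 at both Tnf peaks. At Tnfsf4 the sum of LPS-treated AhR-KO libraries ran from 97.5 to 106 CPM (SD 3.65). No test of the spread was made.

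Of the 98 peaks, 20 were called in 6 or fewer libraries and 6 in 1 library only, and 14 lay nearer to the start of a protein-coding gene that is no member. Tnfsf10 had an intronic peak of this weak kind, 9.82 kb downstream, which was chosen after its values were seen. It held 0.191 CPM in unstimulated WT, 0.166 in unstimulated AhR-KO, 1.16 in LPS-treated WT and 1.18 in LPS-treated AhR-KO (means, n = 6) and was a higher DAR of LPS in both genotypes.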
